A study of Mus musculus with 6 samples.

Results

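The integrin and adhesion genes examined here are 10 of the 27998 genes listed in the files, chosen by symbol: the LFA-1 subunits Itgal and Itgb2, the other integrin subunits Itga4, Itgb7, Itgb1, Itga1 and Itgae, the LFA-1 ligands Icam1 and Icam2, and the hyaluronan receptor Cd44. They were measured in invariant natural killer T (iNKT) cells, which carry a semi-invariant T cell receptor that sees lipids on CD1d. The cells came from the liver, spleen and lymph node of 5-week-old C57BL/6 mice of WT genotype, with 2 libraries per organ and 6 in all, and the labels list no transgene and no treatment. All groups shared the same preparation: CD8 and B220 positive cells were depleted on magnetic beads, and TCRβ and CD1d tetramer positive cells were sorted. Droplet libraries were made with the 10x Chromium 3′ version 2 kit. The study's methods describe the 2 libraries of an organ as biological repeats, and how many mice went into each library is not given in the sources used here.

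Integrins are surface receptors made of an alpha and a beta subunit, and the pairing sets what a T cell can hold on to. LFA-1 is Itgal with Itgb2 and binds ICAM-1 and ICAM-2 on endothelium and antigen-presenting cells. Itga4 pairs with Itgb1 to bind VCAM-1 or with Itgb7 to bind MAdCAM-1, Itga1 with Itgb1 binds collagen, and Itgae with Itgb7 binds E-cadherin on epithelium. CD44 marks antigen-experienced T cells and is also used by cells in liver sinusoids to adhere to hyaluronan. Resident iNKT cells of the liver are known to depend on LFA-1 and ICAM-1 to stay there.

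Both LFA-1 subunits were highest in liver, intermediate in spleen and lowest in lymph node, and all 3 steps passed the library-level edgeR test for each subunit over all cells, though the Itgb2 step from liver to spleen did not pass with DESeq2. Once iNKT17-like cells were left out, the step from spleen to lymph node was 0.33 on the log2 scale for Itgal and 0.17 for Itgb2, against 0.39 and 0.53 with them, and passed for neither. Itga1 and Icam1 were also highest in liver, and Itgb1 and Itga4 were lowest in lymph node. Itgae and Itgb7 ran the other way, with the Itgae level of lymph node 20.8-fold that of liver. For Itgb7 only the difference between liver and lymph node passed, and without iNKT17-like cells it did not (−0.30, adjusted p = 0.0539). Icam2 did not pass the test between any organs. Levels are given as unique molecular identifiers (UMIs, counted transcripts) summed over all cells of a library. They are divided by the library's UMIs of the genes kept, without 192 ribosomal protein and haemoglobin genes, and scaled to CPM (UMIs per 1000000). Tests are edgeR quasi-likelihood tests on the summed counts, with the Benjamini-Hochberg adjusted p taken over 10171 genes and called below 0.05, and every fold change is a log2 value with its standard error (SE).

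Of 16587 barcodes, 16532 passed the cell filter, between 2638 and 2861 per library. The summed UMI totals, before any genes were left out, ran from 9041008 to 11086603 in liver and from 5024085 to 5433779 in spleen. In lymph node they ran from 4768016 to 5132896, so the liver values rest on the most counts. The T cell markers Cd3e, Cd3d, Cd3g and Lck were detected in every library, with summed levels between 5306 and 6416 CPM. The 4 liver and spleen libraries held 5401 to 10404 UMIs of Xist and none of Ddx3y, whereas the lymph node libraries held no Xist and 676 and 746 UMIs of Ddx3y, so organ and sex of the mice cannot be told apart in any comparison with lymph node. The summed level of 12 early response genes was 9130 and 9943 CPM in lymph node against 1678 to 2656 CPM in the other 4 libraries, and its part in the results below was not tested. Myeloid markers (10 of 10 with a UMI) summed to 208 to 250 CPM in liver and spleen and to 290 and 374 CPM in lymph node. B cell markers (5 of 5) summed to 2.54 to 10.2 CPM in spleen and 11.6 to 17.3 CPM in the other libraries. Pairs of libraries shared 6 to 20 cell barcodes.

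Of the 10 genes, 6 were called for liver against spleen (5 with the higher level in liver, 1 lower), where 25.7% of all genes tested were called. Between liver and lymph node 9 were called (7 higher in liver, 2 lower) against 37.6% of all genes. Between spleen and lymph node 6 were called (4 higher in spleen, 2 lower) against 18.3% of all genes. The median log2 fold change of the 10 was 0.26, 0.92 and 0.28 in these comparisons, where that of all genes was 0.02, 0.01 and 0.00. The 3 comparisons share libraries and are not independent of each other. These counts and medians include Itga1, which passed the filter on low counts only through liver, where it is high, so nothing is read from its 2 calls.

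**Figure D1:**
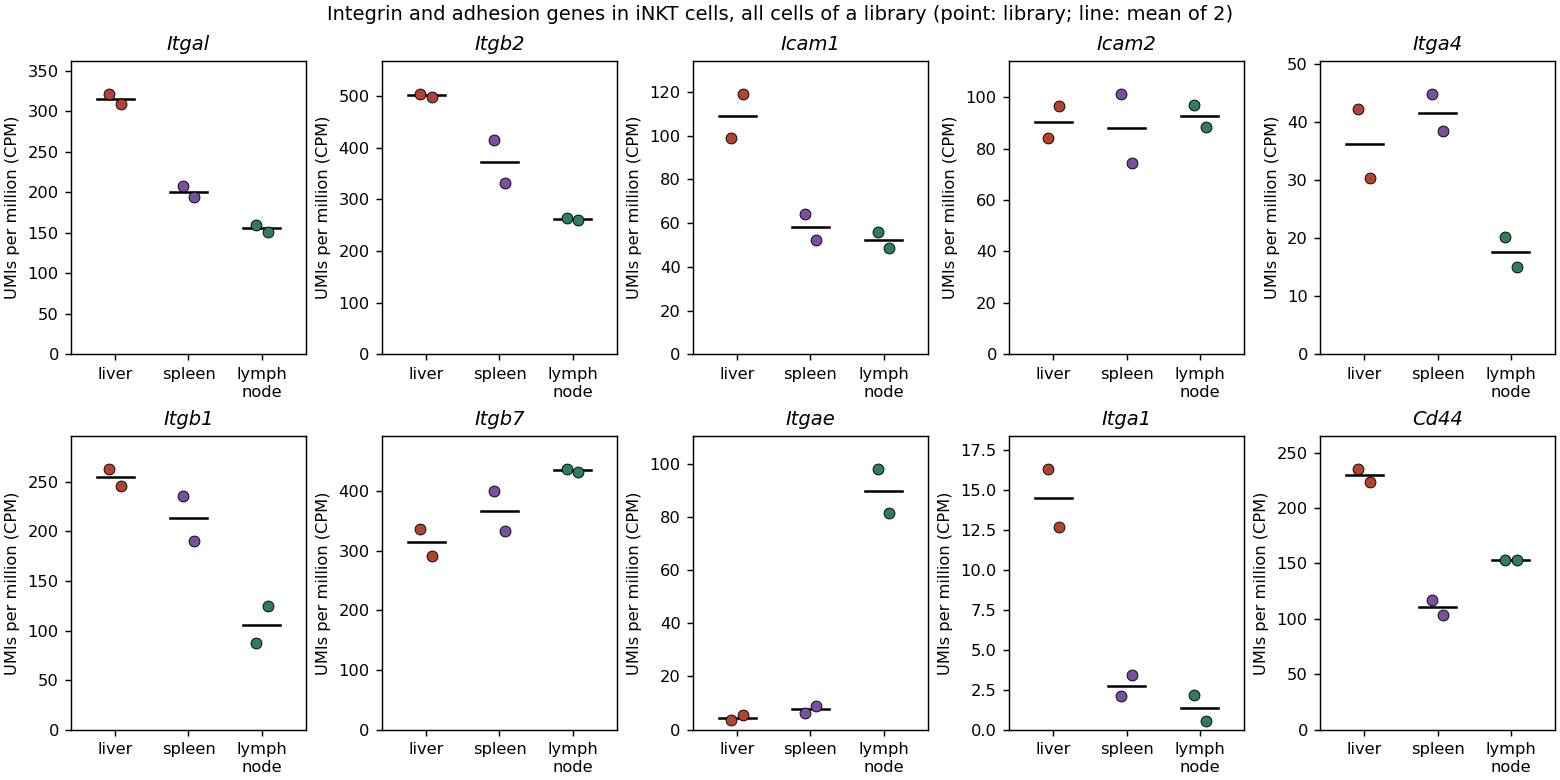
Level of each gene in the 6 libraries, as CPM over all cells (linear axes starting at 0); each point is a library and each line the mean of 2 libraries. Itgal runs from 151 to 322 CPM with no overlap between organs, Itgae is at or under 9.03 CPM outside the lymph node, and the organs overlap for Icam2.

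Itgal, the alpha subunit of LFA-1 (ENSMUSG00000030830, chromosome 7, 127296260 to 127335138, plus strand of GRCm38), stood at 321.6 and 308.8 CPM in the liver libraries, 208.1 and 193.7 CPM in spleen and 160.0 and 151.1 CPM in lymph node. The 3 organs did not overlap, and both libraries of an organ lay close together. Itgal was higher in liver than in spleen by 0.57 ± 0.11 (SE) on the log2 scale (adjusted p = 0.000306) and higher than in lymph node by 0.96 ± 0.11 (adjusted p = 2.87e-08). The step from spleen to lymph node was smaller, at 0.39 ± 0.12 (adjusted p = 0.0158). That last call rests on all 4 libraries involved, since it was lost without spleen replicate 1 (adjusted p = 0.105), spleen replicate 2 (0.0553), lymph node replicate 1 (0.0569) or lymph node replicate 2 (0.187). It was also lost without the iNKT17-like cells described below, an alternative added after seeing the data (0.33, adjusted p = 0.0648).

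Itgb2, the beta subunit shared by LFA-1 and the other leukocyte integrins (ENSMUSG00000000290, chromosome 10, 77530252 to 77565708, plus strand), followed the same order, with 504.6 and 499.1 CPM in liver, 414.6 and 331.7 CPM in spleen and 264.3 and 260.1 CPM in lymph node. The organs again did not overlap, but the 2 spleen libraries lay far apart. Its level was higher in liver than in lymph node by 0.88 ± 0.12 on the log2 scale (adjusted p = 3.69e-07) and higher in spleen than in lymph node by 0.53 ± 0.12 (adjusted p = 0.00149). The difference between liver and spleen was 0.35 ± 0.12 (adjusted p = 0.0264). This call was lost under DESeq2 (adjusted p = 0.0548) and without liver replicate 2 (0.0598) or spleen replicate 2 (0.345), and the difference between spleen and lymph node was not called without spleen replicate 1 (0.0826) or without iNKT17-like cells (0.17, adjusted p = 0.429).

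Icam1, the inducible LFA-1 ligand, and Icam2, its constitutive relative, are shown next, since iNKT cells make the ligands as well as the receptor. The promoter of Icam1 is printed because it holds both inflammatory motifs that were searched, with the matches in capitals. It is the RefSeq sequence of GRCm38.p6, chr9:21015690-21015939 on the plus strand, the 250 bases before the RefSeq start of the gene, from which distances are counted and which lies before the GENCODE start given below.
Icam1: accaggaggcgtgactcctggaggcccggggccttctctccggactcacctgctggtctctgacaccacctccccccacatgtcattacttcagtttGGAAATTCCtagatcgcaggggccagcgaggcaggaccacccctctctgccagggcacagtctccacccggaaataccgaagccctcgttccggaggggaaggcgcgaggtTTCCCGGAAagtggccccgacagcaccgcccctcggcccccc
The capitals mark GGAAATTCC, an NF-kB motif, 153 to 145 bases before the start, and TTCCCGGAA, a match to the GAS motif TTCNNNGAA bound by STAT factors, 42 to 34 bases before it. On both strands, GGAAATTCC was present in 0.286% and TTCNNNGAA in 7.02% of the same window of 32851 RefSeq promoters. The matches are letters in a window and no factor's binding was measured.

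Icam1 (ENSMUSG00000037405, chromosome 9, 21015985 to 21028817, plus strand) stood at 98.7 and 119.2 CPM in liver, 64.0 and 52.5 CPM in spleen and 55.9 and 48.7 CPM in lymph node. Liver lay above both other organs, and spleen and lymph node overlapped. The liver level was higher than that of spleen by 0.82 ± 0.14 on the log2 scale (adjusted p = 5.23e-05) and than that of lymph node by 1.00 ± 0.14 (adjusted p = 9.13e-07), whereas spleen and lymph node differed by 0.18 ± 0.15 (adjusted p = 0.477). Icam2 (ENSMUSG00000001029, chromosome 11, 106377656 to 106388075, minus strand) stood at 84.0 and 96.7 CPM in liver, 101.3 and 74.5 CPM in spleen and 96.7 and 88.2 CPM in lymph node. The organs overlapped, and its log2 fold changes were −0.04 ± 0.14 for liver against spleen, −0.10 ± 0.14 for liver against lymph node and −0.05 ± 0.14 for spleen against lymph node (adjusted p between 0.607 and 0.852).

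The beta 1 subunit Itgb1 (ENSMUSG00000025809, chromosome 8, 128685654 to 128733200, plus strand), the common partner of the VLA integrins, separated lymph node from the other organs. Its level was 263.3 and 246.0 CPM in liver, 235.7 and 190.6 CPM in spleen and 86.9 and 125.2 CPM in lymph node. Liver and spleen differed by 0.18 ± 0.13 on the log2 scale (adjusted p = 0.341). Both exceeded lymph node, liver by 1.20 ± 0.14 (adjusted p = 8.83e-08) and spleen by 1.03 ± 0.14 (adjusted p = 3.58e-06), or 2.30-fold and 2.04-fold.

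Itga1, the collagen-binding partner of Itgb1 (ENSMUSG00000042284, chromosome 13, 114953096 to 115101964, minus strand), was a rare transcript found mostly in liver. The liver libraries held 114 and 76 UMIs (16.3 and 12.7 CPM), the spleen libraries 8 and 12 UMIs (2.10 and 3.39 CPM) and the lymph node libraries 8 and 2 UMIs (2.18 and 0.557 CPM). Liver thus lay above the other 4 libraries, which overlapped. The liver level was higher by 2.32 ± 0.36 on the log2 scale against spleen (5.00-fold) and by 3.31 ± 0.41 against lymph node (9.94-fold). Spleen and lymph node differed by 0.99 ± 0.58 (adjusted p = 0.263). The size of the difference between liver and lymph node rests on few counts, since it was 4.59 without lymph node replicate 1 and 2.66 without lymph node replicate 2. The difference between spleen and lymph node ran from 0.32 to 2.27 over the fits that left out a library. Itga1 reached the filter's minimum in both liver libraries, 1 spleen library and no lymph node library. Its liver differences are therefore a description of a gene selected through liver, given without a test. Its promoter is shown as the counterpart to that of Icam1, since none of the 4 motifs searched (the 2 above, TGTGGT of Runx factors and GTGTGA of T-box factors) was found in these letters (RefSeq, GRCm38.p6, chr13:115101965-115102214, minus strand).
Itga1: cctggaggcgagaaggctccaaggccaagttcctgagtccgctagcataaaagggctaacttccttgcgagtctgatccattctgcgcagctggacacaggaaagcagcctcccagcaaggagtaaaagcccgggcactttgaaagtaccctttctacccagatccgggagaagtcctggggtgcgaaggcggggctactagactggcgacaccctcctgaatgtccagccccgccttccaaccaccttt
No match says only that these letters are not in this window.

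Itga4, the alpha chain of VLA-4 and of the gut-homing receptor with Itgb7 (ENSMUSG00000027009, chromosome 2, 79255426 to 79333123, plus strand), was also lowest in lymph node. Its level was 42.3 and 30.3 CPM in liver, 44.9 and 38.4 CPM in spleen and 20.2 and 15.0 CPM in lymph node. Liver and spleen overlapped (−0.28 ± 0.17 on the log2 scale, adjusted p = 0.228), and both were higher than lymph node, liver by 0.98 ± 0.19 (adjusted p = 0.000106) and spleen by 1.26 ± 0.20 (adjusted p = 1.01e-05). Leaving out single libraries moved the value for liver against spleen between −0.496 and −0.076. The 250 bases before its start (RefSeq, GRCm38.p6, chr2:79255176-79255425, plus strand) are printed because they hold the lymphocyte motifs, in capitals.
Itga4: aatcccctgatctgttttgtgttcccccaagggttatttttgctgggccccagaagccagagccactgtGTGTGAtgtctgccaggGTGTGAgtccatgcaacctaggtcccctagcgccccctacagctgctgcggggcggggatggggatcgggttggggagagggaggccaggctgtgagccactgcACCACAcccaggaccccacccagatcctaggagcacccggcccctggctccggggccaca
GTGTGA occurs 181 to 176 and 164 to 159 bases before the start, and ACCACA, the reverse complement of TGTGGT, 60 to 55 bases before it. TGTGGT was present on either strand in 14.0% and GTGTGA in 12.3% of the same promoter windows, so such matches are common. Of the 10 genes, 6 had an entry in the promoter table, and the promoters of Itgb7, Itgb1 and Cd44 held none of the 4 motifs; Itgal, Itgb2, Itgae and Icam2 were not searched.

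**Figure D2:**
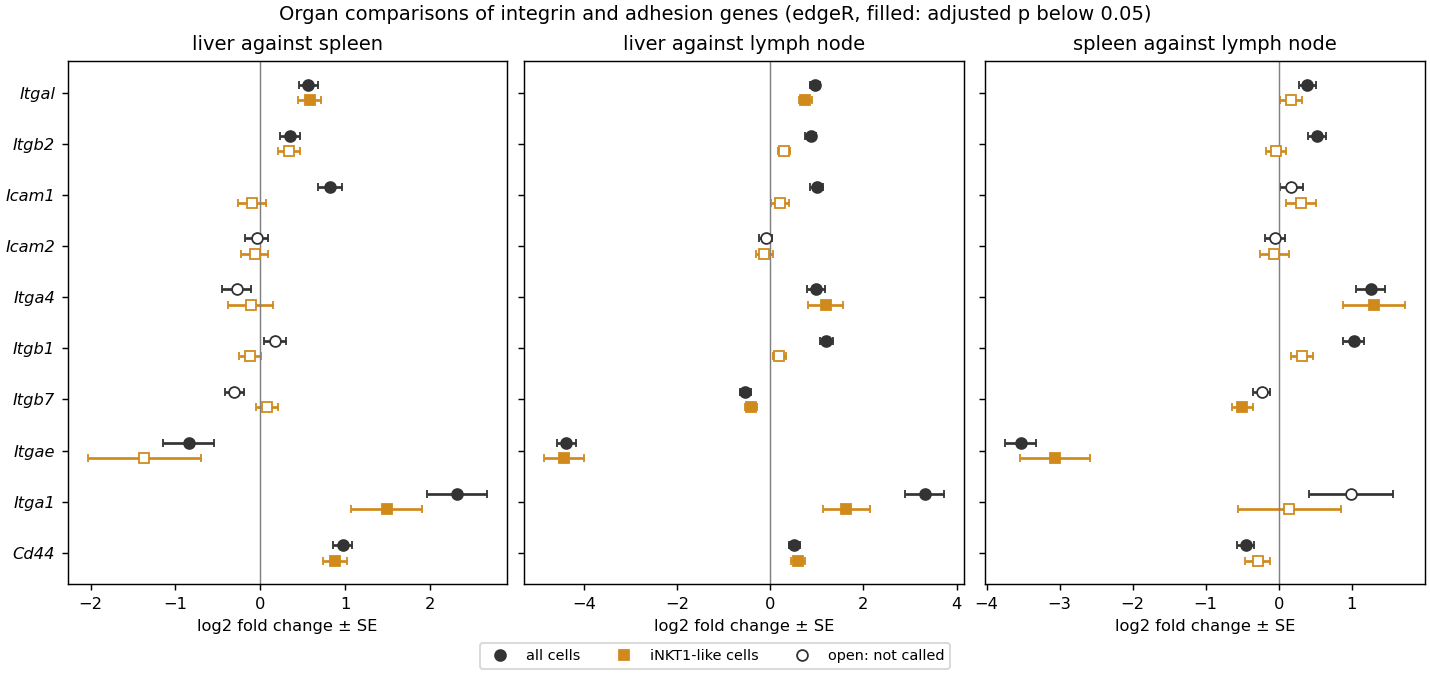
Log2 fold change ± SE of each gene in the 3 organ comparisons from the edgeR fits over all cells (circles) and over iNKT1-like cells (squares), filled where the adjusted p was below 0.05; the horizontal axes differ between panels. In the liver against lymph node panel Itgae lies at −4.38 and Itga1 at 3.31 over all cells, and Icam1 and Itgb1 move from 1.00 and 1.20 over all cells to 0.21 and 0.20 in iNKT1-like cells.

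Itgb7, the beta subunit of the mucosal integrins (ENSMUSG00000001281, chromosome 15, 102215995 to 102231944, minus strand), was highest in lymph node. Its level was 336.0 and 291.3 CPM in liver, 400.2 and 332.0 CPM in spleen and 437.1 and 432.4 CPM in lymph node. Liver and spleen overlapped, with a log2 fold change of −0.30 ± 0.12 (adjusted p = 0.0525), which was called with RLE size factors (−0.31, adjusted p = 0.0484) and without the cell filter (−0.32, adjusted p = 0.0428). Liver was lower than lymph node (log2 fold change −0.53 ± 0.12, adjusted p = 0.000451), and spleen against lymph node gave −0.23 ± 0.12 (adjusted p = 0.190). Without iNKT17-like cells the difference between liver and lymph node was not called (−0.30, adjusted p = 0.0539).

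Itgae, the alpha chain of CD103 (ENSMUSG00000005947, chromosome 11, 73090583 to 73147446, plus strand), showed the widest range of the 10 genes between organs. The liver libraries held 26 and 32 UMIs (3.73 and 5.33 CPM) and the spleen libraries 24 and 32 UMIs (6.30 and 9.03 CPM), where the lymph node libraries held 360 and 293 UMIs (98.1 and 81.5 CPM). Lymph node lay far above the other 4 libraries, which were ordered with liver lowest. The log2 fold change was −4.38 ± 0.21 for liver against lymph node (adjusted p = 5.59e-18) and −3.53 ± 0.21 for spleen against lymph node (11.6-fold, adjusted p = 5.26e-15). Liver was lower than spleen (−0.85 ± 0.30, adjusted p = 0.0340), a call that was lost without liver replicate 1 (adjusted p = 0.304) or spleen replicate 2 (0.356), with DESeq2 (0.0754), with thinned sums (0.0737) and without the cell filter (0.0648).

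Cd44 (ENSMUSG00000005087, chromosome 2, 102811141 to 102901665, minus strand) was the only one of the 10 genes for which spleen was the lowest organ with both steps called. It stood at 235.5 and 223.5 CPM in liver, 117.3 and 103.9 CPM in spleen and 153.4 and 153.6 CPM in lymph node, with no overlap. Liver exceeded spleen by 0.97 ± 0.12 on the log2 scale (adjusted p = 1.98e-07) and lymph node by 0.52 ± 0.11 (adjusted p = 0.000432), and spleen was lower than lymph node (−0.45 ± 0.12, adjusted p = 0.00590). The last call was lost without spleen replicate 2 (adjusted p = 0.0887), lymph node replicate 1 (0.0503) or iNKT17-like cells (−0.30, adjusted p = 0.126).

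Since liver cells carried more UMIs (median 2880 and 3592 per cell against 1470 to 1730.5 in the other libraries), the share of cells with at least 1 UMI of a gene was compared after thinning each cell to 1000 UMIs, which left out 123 and 269 shallower cells of the liver libraries and 635 to 1131 of the others. Itgal was then found in 26.6 ± 0.426% (SD, n = 2) of liver cells, 18.8 ± 0.480% of spleen cells and 13.9 ± 1.15% of lymph node cells. Without thinning the libraries ran from 52.4 and 46.5% in liver to 19.8 and 16.4% in lymph node. Itgb2 was found in 39.9 ± 0.975% of liver cells, 29.9 ± 4.37% of spleen cells (33.0 and 26.8%) and 21.9 ± 0.117% of lymph node cells. Itgae was found in 9.47 ± 0.793% of lymph node cells, 0.710 ± 0.327% of spleen cells and 0.341 ± 0.045% of liver cells. Itga1 reached 1.53 ± 0.206% in liver and 0.178 ± 0.086% in spleen. For comparison, the macrophage gene Lyz2 and the B cell gene Cd79a, which iNKT cells should lack, were counted as well. The 24 cells of the B cell cluster, which has both among its leading genes, were left out of this count alone. Among the other cells Lyz2 was found in 0.192% for liver, 0.107% for spleen and 1.43% for lymph node. Cd79a was found in a mean of at most 0.048% in any organ.

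The balance within the integrin transcripts was compared next, as the share that Itgal and Itgb2 took of all UMIs of integrin subunits, the 7 described here and 19 others. LFA-1 transcripts made up 51.3 and 54.0% of these UMIs for liver, 43.4 and 43.4% for spleen and 36.4 and 35.5% for lymph node. The widest 95% Wilson interval of a library spans 2.97 points, which covers counting error only, and the organs lie further apart than that. The means were 52.6 ± 1.91% (SD, n = 2), 43.4 ± 0.0224% and 35.9 ± 0.631%. In an exact two-sided permutation test of the F value, with 15 ways to arrange 6 libraries as 3 pairs, this arrangement gave p = 0.0667, the smallest p the design allows, so no such share could pass 0.05.

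The same test gave p = 0.0667 (exact, adjusted p = 0.0667 over the 5 shares) for the other 4 shares as well. Itgal made up 77.6 ± 2.68% of the UMIs of all alpha subunits in liver, 69.4 ± 0.0882% of those in spleen and 51.3 ± 1.72% in lymph node. Itgb2 made up 43.8 ± 1.77, 36.1 ± 0.688 and 30.5 ± 0.952% of the UMIs of all beta subunits in the same order. Among Itgb7 and Itgb1 UMIs, the Itgb7 share ran the other way, from 55.1 ± 1.30% in liver over 63.2 ± 0.42% in spleen to 80.5 ± 4.15% in lymph node. Icam1 made up 54.6 ± 0.83% of the Icam1 and Icam2 UMIs in liver, 40.0 ± 1.84% of those in spleen and 36.1 ± 0.73% in lymph node. These are shares of transcripts counted at the 3′ end and not of receptors on the surface.

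**Figure D3:**
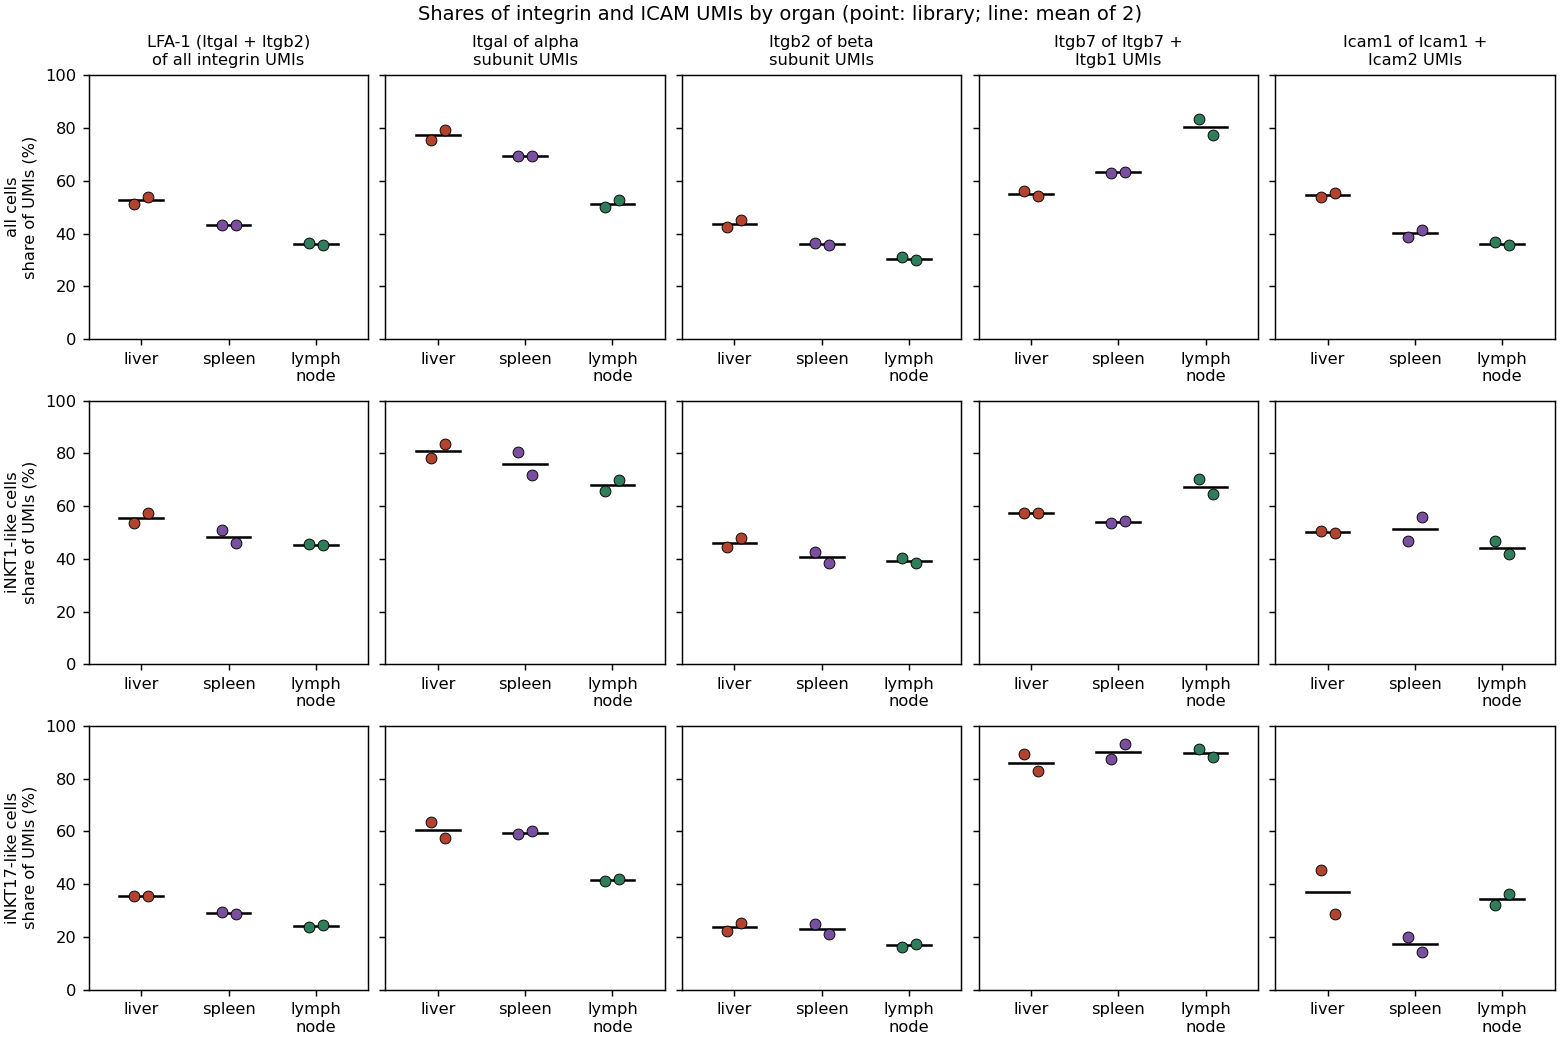
The 5 shares of UMIs in each of the 6 libraries, in percent, over all cells (top), iNKT1-like cells (middle) and iNKT17-like cells (bottom); each point is a library and each line the mean of the 2 libraries of an organ. Over all cells the LFA-1 share of all integrin subunit UMIs falls from 52.6% in liver over 43.4% in spleen to 35.9% in lymph node, while the Itgb7 share of Itgb7 and Itgb1 is 55.1, 63.2 and 80.5%.

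The organs differ in their mix of iNKT subsets, so the cells were clustered with the 10 genes left out and clusters were named from marker genes. Cells called iNKT1-like were 75.6% of the liver cells, 38.2% of the spleen cells and 26.8% of the lymph node cells, and iNKT17-like cells were 0.934, 1.69 and 34.4%. Cells called iNKT2-like were 15.8% of lymph node cells and at most 0.111% elsewhere. Clusters that stayed unnamed held 33.7% of spleen cells, 13.0% of lymph node cells and 2.09% of liver cells. Most clusters came mainly from 1 organ, so their levels are given as a description of these libraries.

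The 2035 iNKT17-like cells had the highest Itgae level of the named classes (144.2 CPM, 428 UMIs), with Itgb7 at 568.6 CPM, while their Itgb1 (66.0 CPM) and Itgb2 (155.6 CPM) were low. The 4555 cells of the main liver iNKT1-like cluster had 333.8 CPM of Itgal, 519.9 CPM of Itgb2 and 16.3 CPM of Itga1, each the highest among the named classes of T cells. The 873 iNKT2-like cells had 82.6 CPM of Itgae. Icam1 was highest, at 240.8 CPM, in the 848 Ifit-like cells, which are named for interferon-induced genes. The same cluster also had a median log2 ratio of 1.18 to the other cells for NF-kB markers, with Mir155hg and Lad1 among its leading genes, and the part of either group of genes in its Icam1 level was not tested. That class made up 9.41 ± 3.41% (SD, n = 2) of liver cells, 2.92 ± 0.293% of spleen cells and 2.88 ± 0.749% of lymph node cells.

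The 1711 Gzma-like cells, which express Ly49 receptor genes but also had a median log2 ratio of 1.09 to the other cells for RTE (recent thymic emigrant) markers, with Klf2 and Ccr7 among their leading genes, stood at 508.8 CPM of Itgb7 and 61.5 CPM of Itga4, the partners of the gut-homing integrin. Without regression of depth before clustering, only 301 cells were Gzma-like and a cluster of 1608 cells, mostly from spleen, was RTE-like. The 154 cells named RTE-like, nearly all from lymph node, had 581.3 CPM of Itgb7, 81.1 CPM of Itga4 on 12 UMIs and 148.7 CPM of Icam2, with only 27.0 CPM of Cd44 and 20.3 CPM of Itgb1 on 4 and 3 UMIs. Low Cd44 is a known trait of T cells that have recently left the thymus. The 438 cycling cells had 300.2 CPM of Itgb1, the highest of the named classes.

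**Figure D4:**
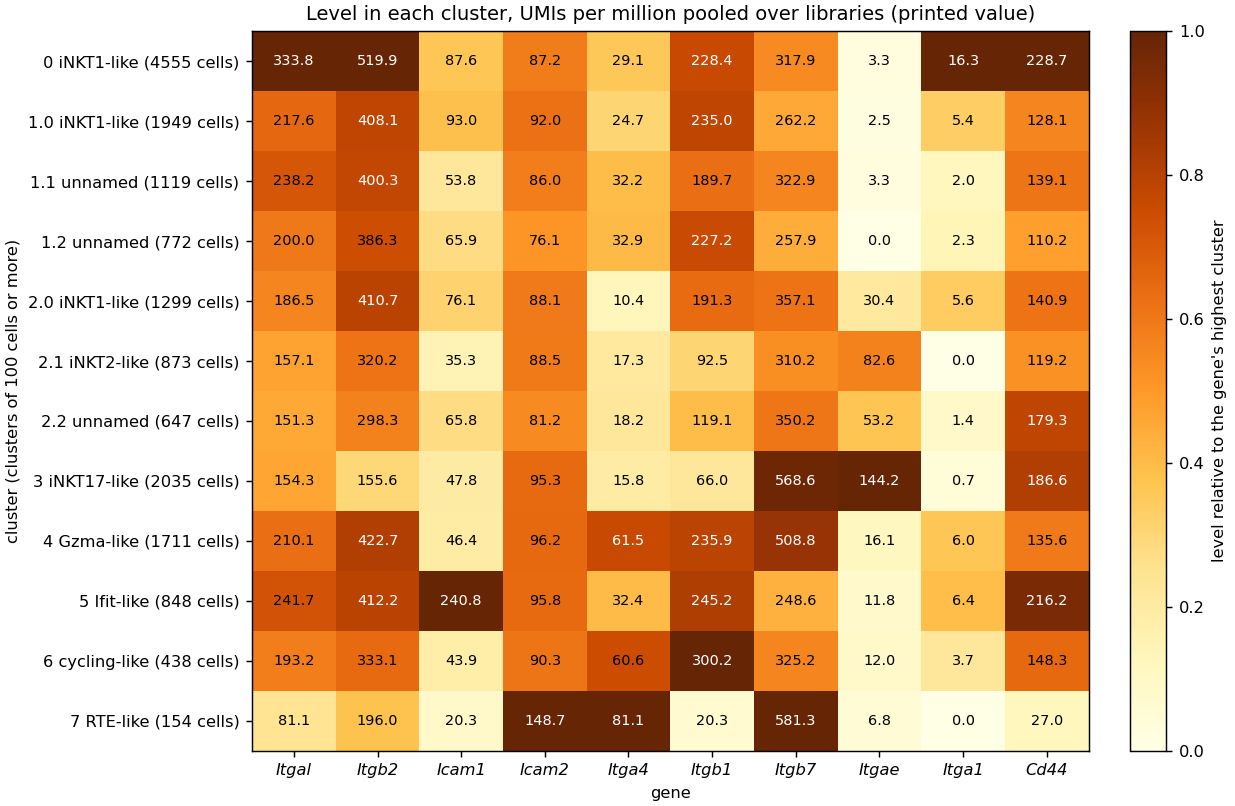
Level of each gene in each cluster, in rows, for the clusters of 100 cells or more; the printed value is CPM pooled over libraries, and the colour is that value relative to the gene's highest cluster shown. Itgae stands out in the iNKT17-like (144.2 CPM) and iNKT2-like (82.6 CPM) clusters, Icam1 in the Ifit-like cluster (240.8 CPM), and Cd44 and Itgb1 are lowest in the RTE-like cluster.

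Within iNKT1-like cells, 3 of the 10 genes were called for liver against spleen, all with the higher level in liver, where 18.5% of the 8078 genes tested were called. For liver against lymph node 6 were called (4 with the higher level in liver, 2 lower) against 21.7% of all genes, and for spleen against lymph node 3 (1 with the higher level in spleen, 2 lower) against 7.71%. The class came from different clusters in each organ, with 2260 and 1964 cells of cluster 0 in the liver libraries, 939 and 922 cells of cluster 1.0 in the spleen libraries and 645 and 608 cells of cluster 2.0 in the lymph node libraries. Cluster 0 was named against all other cells, but 1.0 and 2.0 only against the rest of clusters 1 and 2. For iNKT1 markers the median log2 ratio to all other cells was 0.71 in cluster 0, −0.24 in cluster 1 and −0.97 in cluster 2. Class and organ are therefore hard to separate, and the class held only 17 and 81 liver cells when clustered at a Leiden resolution of 0.3. With all sums thinned to the total of the smallest library, 0, 1 and 0 of the 9 genes still tested were called, the 1 being Itgae between liver and lymph node, where 0.885, 3.53 and 0.817% of the 7343 genes tested in those fits were called. Among the calls of the class, Itga1 passed the filter only through liver and Itgae only through lymph node, each where it is high. The counts above include their calls, from which nothing is read, and their values are given as a description.

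Itgal within the class stood at 339.9 and 336.8 CPM in liver, 238.9 and 188.0 CPM in spleen and 186.5 and 188.0 CPM in lymph node. It was higher in liver than in spleen by 0.58 ± 0.13 on the log2 scale (adjusted p = 0.000749) and than in lymph node by 0.75 ± 0.14 (adjusted p = 2.70e-05), and spleen and lymph node differed by 0.17 ± 0.15 (adjusted p = 0.613). The call against spleen was lost without spleen replicate 2 (adjusted p = 0.0941) and when depth was not regressed out before clustering (0.41, adjusted p = 0.180). Both calls were lost with other bounds of the class, at Leiden resolution 0.3 (0.13, adjusted p = 0.910, against spleen and 0.38, adjusted p = 0.598, against lymph node) and 1.0 (0.51, adjusted p = 0.505, and 0.67, adjusted p = 0.282), and with thinned sums (0.42, adjusted p = 0.377, and 0.62, adjusted p = 0.178). Itgb2 stood at 521.4 and 534.7 CPM in liver, 446.4 and 345.1 CPM in spleen and 407.8 and 392.3 CPM in lymph node, and did not pass the test (0.34 ± 0.13, adjusted p = 0.0534, against spleen and 0.30 ± 0.13, adjusted p = 0.0971, against lymph node). It did pass against spleen without the filter on low counts (adjusted p = 0.0426) and without the cells of the highest Scrublet scores (0.0364). Leaving out single libraries moved this difference from spleen between 0.19 and 0.51. When clusters 1 and 2 were counted whole as iNKT1-like, an alternative added after seeing the data, Itgb2 was called against spleen (0.36, adjusted p = 0.0214) and against lymph node (0.52, adjusted p = 0.000551), and the step of Itgal from spleen to lymph node passed as well (0.39, adjusted p = 0.0283). This alternative also counts unnamed cells and the 873 iNKT2-like cells, 433 and 432 of them in the lymph node libraries, as iNKT1-like.

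Icam1 and Itgb1, higher in liver than in lymph node over all cells, did not pass within iNKT1-like cells. Icam1 stood at 85.2 and 94.1 CPM in liver, 87.2 and 94.5 CPM in spleen and 83.2 and 59.7 CPM in lymph node, and its log2 fold change was 0.21 ± 0.19 against lymph node (adjusted p = 0.451) and −0.10 ± 0.16 against spleen (adjusted p = 0.716), taking liver first. Itgb1 stood at 241.1 and 214.4 CPM, 250.7 and 218.8 CPM and 163.7 and 207.4 CPM in the same order, with 0.20 ± 0.14 between liver and lymph node (adjusted p = 0.347). Leaving out single libraries moved the liver and lymph node difference of Icam1 between −0.008 and 0.486 and that of Itgb1 between 0.037 and 0.363. The Icam1 difference between liver and spleen ran from −0.195 to 0.016 in those fits. With clusters 1 and 2 counted whole, both were called between liver and lymph node, Icam1 at 0.63 (adjusted p = 0.00115) and Itgb1 at 0.75 (adjusted p = 2.02e-05), and Itgb1 also between spleen and lymph node at 0.72 (adjusted p = 0.000118). Icam1 was called between liver and lymph node without regression of depth too (0.50, adjusted p = 0.0282). The result for these genes thus depends on where the class is bounded. The whole clusters include the iNKT2-like cells, which had 35.3 CPM of Icam1 and 92.5 CPM of Itgb1.

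Itgae remained the gene with the widest organ difference within iNKT1-like cells, on few counts. The liver libraries held 12 and 3 UMIs (2.34 and 0.800 CPM), the spleen libraries 4 and 5 UMIs and the lymph node libraries 29 and 20 UMIs (38.9 and 29.8 CPM). The log2 fold change was −4.42 ± 0.42 for liver against lymph node and −3.06 ± 0.48 for spleen against lymph node. Since Itgae passed the filter in this class only through lymph node, where it is high, no test is given. Without liver replicate 1 the first value was −5.36. It was −7.47 at Leiden resolution 0.3 and −7.04 at 1.0, and the second was −2.92 with thinned sums. Over all cells without the iNKT17-like ones, also added after seeing the data, Itgae stayed lower in liver than in lymph node (−3.94 ± 0.26, adjusted p = 5.61e-14). Its partner Itgb7 was lower than in lymph node in iNKT1-like cells of both liver (−0.42 ± 0.13, adjusted p = 0.0133) and spleen (−0.50 ± 0.14, adjusted p = 0.0123). The first of these calls was lost without lymph node replicate 1 (adjusted p = 0.118) or 2 (0.0749), and the second without spleen replicate 1 (0.0626) or 2 (0.163) or lymph node replicate 1 (0.135) or 2 (0.0750). With clusters 1 and 2 counted whole neither was called (−0.26, adjusted p = 0.0783, and −0.28, adjusted p = 0.103), nor was either with thinned sums (adjusted p = 0.484 and 0.236). The call for liver was also lost at Leiden resolution 1.0 (−0.59, adjusted p = 0.357) and that for spleen without regression of depth (−0.52, adjusted p = 0.0722).

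Cd44 in iNKT1-like cells was higher in liver than in spleen by 0.88 ± 0.14 (adjusted p = 2.07e-06) and than in lymph node by 0.59 ± 0.15 (adjusted p = 0.00163), the latter lost without lymph node replicate 2 (adjusted p = 0.0893). Both Cd44 calls were lost at Leiden resolution 0.3 (adjusted p = 0.0836 and 0.272) and 1.0 (0.0516 and 0.323), where the values were as large or larger (0.97 and 0.63, and 1.13 and 0.67), and with thinned sums (0.60 and 0.42, adjusted p = 0.181 and 0.275). Itga1, at 93 and 56 UMIs in liver, 6 and 6 UMIs in spleen and 6 and 1 UMIs in lymph node, was higher in liver by 1.49 ± 0.42 against spleen and by 1.64 ± 0.51 against lymph node. It passed the filter in this class only through liver, where it is high, so no test is given. The value against spleen was 1.37 without liver replicate 1 and 1.32 without spleen replicate 1. That against lymph node was 1.51 without liver replicate 1, 0.93 without lymph node replicate 2 and 3.34 without lymph node replicate 1. DESeq2 gave 1.47 against spleen and 1.635 against lymph node. Without regression of depth before clustering the difference from spleen turned to −0.045. Itga4 was lower in lymph node than in liver (1.19 ± 0.38, adjusted p = 0.0179) and spleen (1.30 ± 0.42, adjusted p = 0.0441). The Itga4 calls were lost without liver replicate 1 (adjusted p = 0.242) or spleen replicate 2 (0.346), respectively, and both without lymph node replicate 1 (0.155 and 0.243) or 2 (0.102 and 0.165). Both were also lost with DESeq2 (0.146 and 0.201), with thinned sums (0.556 and 0.589) and at Leiden resolution 1.0 (0.945 and 0.349). At resolution 0.3 the value for liver against lymph node turned to −0.83 (adjusted p = 0.863), and that for spleen was 1.06 (adjusted p = 0.0896). The call for spleen was lost as well with the 10 genes kept among those clustered (0.0698). Between spleen and lymph node Cd44, Itgb2, Itgb1 and Icam1 were not called, with −0.29 ± 0.17, −0.04 ± 0.14, 0.32 ± 0.15 and 0.31 ± 0.20 (adjusted p between 0.227 and 0.925). Itga1 gave 0.15 ± 0.70, without a test, and ran from −0.56 to 1.85 on leaving out single libraries. Between liver and spleen Itga4, Itgb1 and Itgb7 gave −0.11, −0.12 and 0.08, also without a call (adjusted p between 0.548 and 0.799). Itgae, which passed the filter in this class only through lymph node, gave −1.37, without a test. Leaving out single libraries moved Itga4 between −0.57 and 0.28 and Itgae between −2.31 and −0.92, and Itga4 was called as lower in liver without regression of depth (−1.37, adjusted p = 0.00359). Icam2 was not called in any comparison of the class.

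The LFA-1 share of integrin UMIs within iNKT1-like cells was 55.5 ± 2.76% (SD, n = 2) for liver, 48.5 ± 3.49% for spleen and 45.4 ± 0.45% for lymph node (exact permutation p = 0.0667, adjusted p = 0.167 over 5 shares). The gap between liver and lymph node was 10.0 points within the class and 16.7 points over all cells. Within iNKT17-like cells the share was lower in every organ, at 35.6 ± 0.0471, 29.0 ± 0.669 and 24.1 ± 0.384% (exact permutation p = 0.0667, adjusted p = 0.25), with a gap of 11.5 points. The liver libraries held only 21 and 19 UMIs of Itgal and 15 and 18 of Itgb2 in this class. The interval width for counting error given above is for all cells and does not apply to such few counts. The order of the organs in this share was the same in both classes. The levels of the subunits did not keep that order throughout in iNKT17-like cells. There Itgb2 stood at 209.3 and 234.4 CPM in liver against 373.6 and 202.3 CPM in spleen. Itgal stood at 134.9 and 140.0 CPM in spleen against 156.3 and 142.0 CPM in lymph node.

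Only 20 and 33 liver cells and 54 and 37 spleen cells were iNKT17-like, against 868 and 1023 lymph node cells, and 6 of the 10 genes passed the filter on low counts (Cd44, Icam2, Itgae, Itgal, Itgb2 and Itgb7), which leaves Itga4, Itgb1, Itga1 and Icam1 untested in this class. None was called between liver and spleen, where 3.11% of the 1864 genes tested were called; the unadjusted p was below 0.05 for 1 of the 6 (Itgal), and DESeq2 called 0. Between liver and lymph node 1 was called against 15.9% of all genes. That gene was Itgal, at 293.1 and 247.5 CPM in liver and 156.3 and 142.0 CPM in lymph node (0.85 ± 0.27, adjusted p = 0.0213). The call was lost without liver replicate 1 (adjusted p = 0.321), liver replicate 2 (0.111) or lymph node replicate 2 (0.103), without a filter on low counts (0.67, adjusted p = 0.279) and with thinned sums, where the value was larger (2.21, adjusted p = 0.489). DESeq2 did not call it either (0.84, adjusted p = 0.111) and called 0 of the 6.

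Between spleen and lymph node 2 genes were called in iNKT17-like cells against 6.97% of all genes. Itgb2 stood at 373.6 and 202.3 CPM in spleen and 135.9 and 149.3 CPM in lymph node, higher in spleen by 1.03 ± 0.26 (adjusted p = 0.00523), a call lost without spleen replicate 1 (0.42, adjusted p = 0.701), with DESeq2 (1.01, adjusted p = 0.0813), without regression of depth (0.90, adjusted p = 0.231) and with thinned sums (0.46, adjusted p = 0.953). Itgae stood at 2 and 3 UMIs in spleen and 215 and 196 UMIs in lymph node, lower in spleen (−2.36 ± 0.50). The value was −1.80 without spleen replicate 1, −2.96 without spleen replicate 2 and −1.78 at Leiden resolution 1.0. It was −1.06 without regression and −1.34 with the 10 genes kept among those clustered. Itgae passed the filter in this class only through lymph node, where it is high. Its call is therefore a description, from which nothing is read, and no test is given. Liver iNKT17-like cells held 4 and 8 Itgae UMIs (55.8 and 104.2 CPM), and the difference from lymph node was −0.94 ± 0.39, likewise given without a test. Leaving out single libraries moved this difference between −1.52 and −0.59. Itgb7 was between 442.8 and 799.1 CPM in all 6 libraries, and neither it nor Cd44 or Icam2 was called in any comparison. Itgb2 between liver and lymph node, at 0.63 ± 0.29 (adjusted p = 0.143), was called with the 10 genes kept among those clustered (0.78, adjusted p = 0.0462).

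**Figure D5:**
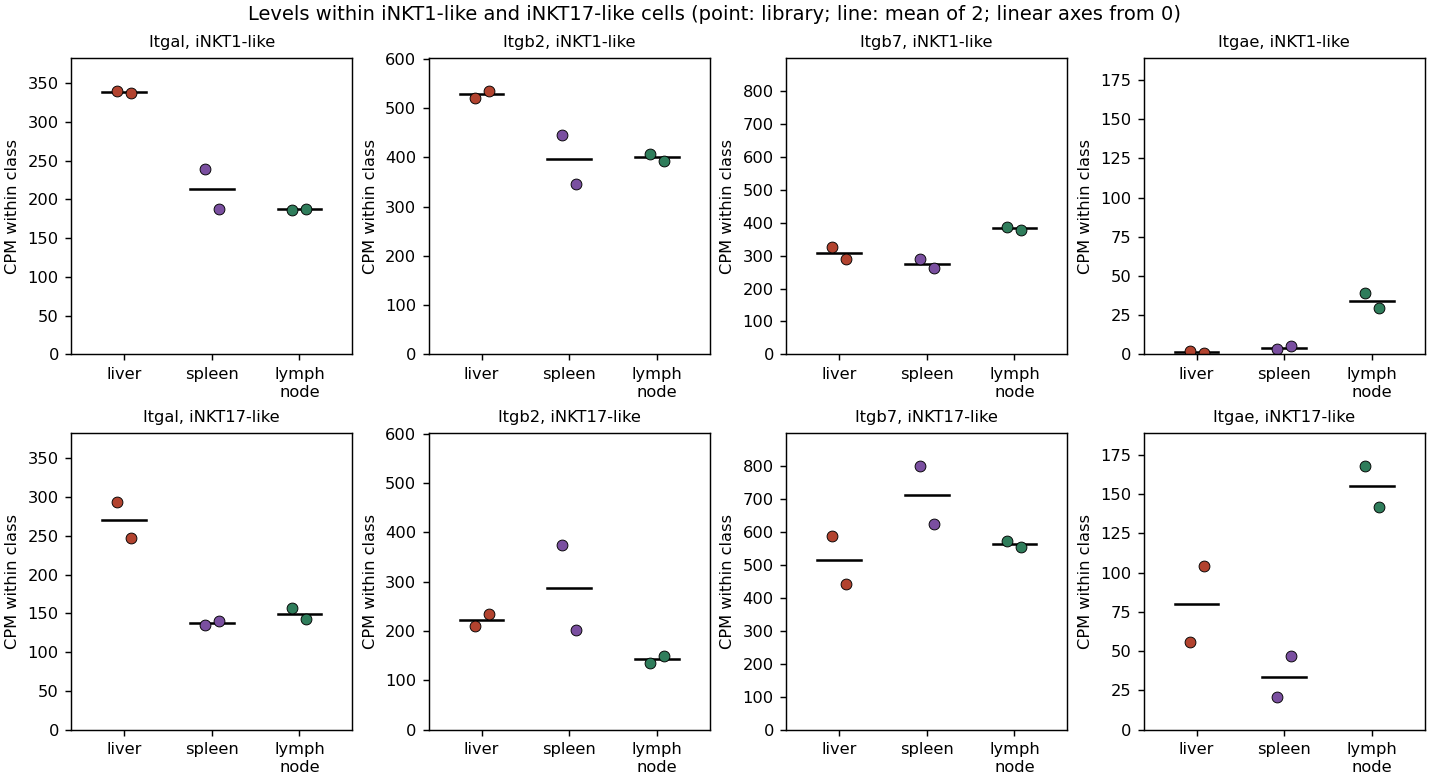
Level of Itgal, Itgb2, Itgb7 and Itgae within iNKT1-like cells (upper panels) and iNKT17-like cells (lower panels), as CPM of the class in each library, with the mean of 2 libraries as a line and axes starting at 0. Itgal in liver lies above the other organs in both classes (336.8 CPM or more in iNKT1-like and 247.5 CPM or more in iNKT17-like cells), while the scatter of the few liver and spleen iNKT17-like cells is wide.

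Whether the organ differences had another size in iNKT17-like than in iNKT1-like cells was tested as a class-by-organ interaction. No gene of the 10 was called between liver and spleen (0.148% of the 8761 genes tested were called; 3 of the 10, Itgae, Itgb2 and Itgb7, had an unadjusted p below 0.05, and DESeq2 called 0, though it gave 8 of the 10 no adjusted p). Between liver and lymph node 1 was called (0.993% of all genes), and between spleen and lymph node 2 (0.628%). For Itgae the log2 fold change between liver and lymph node was less negative in iNKT17-like cells by 3.25 ± 0.70 (adjusted p = 0.000823), a call lost without liver replicate 2 (2.18, adjusted p = 0.657) and at Leiden resolution 0.3 (6.34, adjusted p = 0.939) and 1.0 (6.04, adjusted p = 0.949). Without liver replicate 1 the value was 4.51. The fold changes of Itgb2 and Itgb7 between spleen and lymph node were more positive in iNKT17-like cells, by 0.98 ± 0.26 (adjusted p = 0.0333) and by 0.73 ± 0.18 (adjusted p = 0.0142). Without spleen replicate 1 these were 0.46 (adjusted p = 0.903) and 0.45 (0.839), and Itgb2 was called in 1 and Itgb7 in 2 of the 6 fits that each left out a library. Neither was called with DESeq2 (adjusted p = 0.0966 for both), without a filter on low counts (0.112 and 0.0683) or with clusters 1 and 2 counted whole (0.146 and 0.150). For Itgal the interaction between liver and lymph node was −0.12 ± 0.27 (adjusted p = 0.980). The other 8 genes were not called in that comparison (adjusted p of 0.466 or more), and neither were the 8 others between spleen and lymph node (0.642 or more).

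Other genes of the pathway were taken from 3 lists. Of 19 other integrin subunits, 5 passed the filter on low counts; none was called for liver against spleen (0 of the 5 by edgeR or DESeq2, and 0 with an unadjusted p below 0.05), 3 for liver against lymph node (1 with the higher level in liver, 2 lower; median 0.00) and 3 for spleen against lymph node (2 with the higher level in spleen, 1 lower), among them Itgb5 and Itga2, which passed only through the organ where they are high. DESeq2 called 2 of the 5 in each of the last comparisons, and of all genes 25.7, 37.6 and 18.3% were called by edgeR in the same order. Itgb3, which pairs with Itgav as the vitronectin receptor, was lower in lymph node (45.1 ± 5.18 CPM) than in liver (76.4 ± 6.89 CPM; 0.70, adjusted p = 0.000137) and spleen (80.1 ± 3.94 CPM; 0.85, adjusted p = 3.06e-05). Itgb5, another partner of Itgav, had 61 UMIs in lymph node, 3 in liver and 1 in spleen. The ratio of its CPM was 36.3 for lymph node to liver (95% exact interval 11.9 to 181.1) and 61.7 for lymph node to spleen (10.7 to 2478.3), where the intervals pool both libraries of an organ and cover counting error only. It passed the filter only through lymph node, so no test is given. Itga6, a laminin receptor subunit, was lower in liver than in lymph node (−0.67, adjusted p = 0.0243). Itga2, a collagen receptor subunit like Itga1, passed the filter only through spleen, with a log2 fold change of 1.91 between spleen and lymph node that is given without a test. The Itga6 call was lost with DESeq2 (adjusted p = 0.124) and without liver replicate 2 (−0.45, adjusted p = 0.204), lymph node replicate 1 (0.104) or lymph node replicate 2 (0.111).

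All 25 genes of integrin activation and linkage to the cytoskeleton were tested. Between liver and spleen 8 were higher and 3 lower in liver, between liver and lymph node 11 were higher and 4 lower, and between spleen and lymph node 2 were higher and 1 lower in spleen, with medians of 0.17, 0.20 and 0.12. These 11, 15 and 3 of 25 genes stand beside 25.7, 37.6 and 18.3% of all genes, and DESeq2 called 8, 11 and 1 of the 25. Tln1, the talin that joins integrin tails to actin, was higher in spleen than in lymph node (0.48, adjusted p = 0.00420). Rasgrp2, the exchange factor that switches on Rap1, was lower in liver than in spleen (−0.74, adjusted p = 4.63e-05) and higher in spleen than in lymph node (0.40, adjusted p = 0.0231). Rapgef1, another Rap1 exchange factor, and the focal adhesion kinase relative Ptk2b were higher in liver than in lymph node, by 1.09 (adjusted p = 0.000133) and 0.74 (adjusted p = 1.12e-05). The adaptor paxillin, Pxn, was higher in liver than in spleen (0.83, adjusted p = 0.000704). The actin crosslinker Actn1 was lower in liver than in spleen (−1.50, adjusted p = 0.000376) and lymph node (−1.44, adjusted p = 0.000265), and the integrin regulator Cyth1 was lower in spleen than in lymph node (−0.44, adjusted p = 0.0177). All 3 calls of the list between spleen and lymph node depended on single libraries. That of Tln1 was lost without spleen replicate 2 (adjusted p = 0.165) or lymph node replicate 1 (0.0837). That of Rasgrp2 was lost with DESeq2 (0.0998), without spleen replicate 2 (0.161) or lymph node replicate 2 (0.265), and without iNKT17-like cells (0.38, adjusted p = 0.0581), and that of Cyth1 in the same settings (0.0803, 0.194, 0.236 and, at −0.37, 0.0839). The values without iNKT17-like cells lay close to those with them.

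Of 29 other adhesion receptors and ligands, 15 were tested. None was higher and 5 were lower in liver than in spleen, 5 were higher and 6 lower in liver than in lymph node, and 4 were higher and 2 lower in spleen than in lymph node, with medians of −0.11, −0.08 and −0.11. These 5, 11 and 6 of 15 genes stand beside the same shares of all genes, and DESeq2 called 5, 10 and 3 of the 15. The tetraspanin gene Cd9 was lower in liver than in spleen (−1.20, adjusted p = 5.63e-07) and lymph node (−1.68, adjusted p = 1.29e-10), and Pecam1 was lower in liver than in spleen (−0.68, adjusted p = 0.00170). L1cam was lower in spleen than in lymph node (−1.66, adjusted p = 0.00542) on few counts, and Icam4, at −2.33 for liver against lymph node, passed the filter only through lymph node and is given without a test. Cd226, an adhesion and activating receptor linked to LFA-1 function, and Cd2, the receptor of CD48, were higher in spleen than in lymph node by 0.98 (adjusted p = 1.07e-07) and 0.62 (adjusted p = 0.000289). The Pecam1 call was lost without liver replicate 1 (adjusted p = 0.0602) and the Cd2 call without iNKT17-like cells (0.33, adjusted p = 0.0773). The L1cam call was lost with DESeq2 (0.0529), without spleen replicate 2 (0.0864) or lymph node replicate 1 (0.0527), and without iNKT17-like cells (−1.35, adjusted p = 0.0734).

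The genes whose levels followed a member most closely over the 6 libraries were found by the root mean square difference of centred log2 CPM among 5884 genes with a mean of at least 20 CPM. They are a description over libraries that share organ and depth. For Itgal they were Rinl (0.050), Gna15 (0.054) and H2-K1 (0.064), and for Itgb2 Ckb (0.038), Smad3 (0.047) and Dnajc15 (0.052). For Itgb7 they were Atp2c1 (0.027), Ppt2 (0.037) and Arf6 (0.053), and for Icam1 Tubb4b (0.062), Calr (0.080) and Igtp (0.082), an interferon-inducible GTPase. The nearest genes of Itga1 lay much further off, with Gzma at 0.39, Bcl2 at 0.48 and Ly6c2 at 0.57.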

How the data were processed

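Per the labels and the study's methods, the authors mapped the reads of 6 droplet libraries to mm10 with Cell Ranger 3.1.0 and deposited, for each library, a matrix of UMI counts with its gene and barcode lists; the annotation version is not given in the sources used here, and gene positions come from GENCODE on GRCm38, the same assembly as mm10. Cells with 300 to 4000 genes and at most 15% mitochondrial UMIs were kept, and 192 ribosomal protein and haemoglobin genes (24.5 to 35.8% of UMIs) were left out of the sums. No doublets were removed; leaving out the 2% of cells with the highest Scrublet scores was an alternative. Cells were clustered with scanpy 1.11.5 (2996 variable genes without the 10 genes described, 20 components, Leiden resolution 0.5), and clusters were named from markers. Counts were summed per library, or per library and class, filtered with filterByExpr (minimum count 10), scaled by TMM and tested with edgeR 4.0.16 in a fit of all 6 libraries, with DESeq2 1.42.0 as an alternative; the interaction had the library as a block. Transcript shares were tested exactly over 15 arrangements with scipy 1.17.1. The scripts were tested on simulated data. All 10 genes are described in every comparison over all cells and, where tested, within the classes, there partly by their range; from each list the 3 called genes with the largest change, of which 1 is not reported here. The genes and lists were chosen with earlier results of these data known. The p-values measure the spread between 2 libraries per organ, and fewer expressing cells and less RNA per cell are not separated by the sums. The labels call the extracted molecule nuclear RNA, and this stayed unsettled.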

Additional observations from a re-analysis of the deposited data

Results flagged for a closer look

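Of the organ differences tested for another size in iNKT17-like than in iNKT1-like cells, 3 were called (0, 1 and 2 of the 10 genes for liver against spleen, liver against lymph node and spleen against lymph node, beside 0.148, 0.993 and 0.628% of all 8761 genes), each as the log2 fold change in iNKT17-like minus that in iNKT1-like cells. Itgae between liver and lymph node gave 3.25 (edgeR, adjusted p = 0.000823), from 4 and 8 UMIs in liver iNKT17-like cells and 12 and 3 UMIs in liver iNKT1-like cells. It was not called without liver replicate 2 (2.18, adjusted p = 0.657) or at Leiden resolution 0.3 (6.34, adjusted p = 0.939) and 1.0 (6.04, adjusted p = 0.949). Itgb2 between spleen and lymph node gave 0.98 (adjusted p = 0.0333) and Itgb7 gave 0.73 (adjusted p = 0.0142). Both were lost without spleen replicate 1, at 0.46 (adjusted p = 0.903) and 0.45 (adjusted p = 0.839). With 2 libraries per organ, no library could be examined for lying apart from the others of its group.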

How the results depend on the processing

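Over all cells, 428 of the 450 values of the 10 genes under other settings kept their side of the threshold, 19 were no longer called and 3 became called. No called value changed sign, but 5 uncalled values of Icam2 did. The 3 were Itgb7 between liver and spleen with RLE scaling, without the cell filter and with the replicate block (−0.30, adjusted p = 0.0209). Within iNKT1-like cells 465 of 529 kept their side, 49 were lost and 13 gained, and 2 called values changed sign: Itga4 between liver and lymph node at a Leiden resolution of 0.3 (−0.83) and Itga1 between liver and spleen without regression of depth (−0.045). In iNKT17-like cells 264 of 279 kept their side and in the interaction 430 of 453, leaving out 2 and 12 values of iNKT1-like cells and the interaction for which DESeq2 gave no adjusted p; of the list genes 332 of 358 did. Among the values that were called in neither fit, 31 in iNKT1-like cells, 12 in iNKT17-like cells and 54 in the interaction changed sign. Causes were not tested.

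The number of all genes called moved by over 1.5 times as follows, in the order liver against spleen, liver against lymph node and spleen against lymph node where 3 are given. Over all cells it was 2618 and 1865 for the first and last comparison, 1421 and 1126 with DESeq2, and 1211 for the last without iNKT17-like cells. In iNKT1-like cells it was 1494, 1749 and 623, with DESeq2 526, 877 and 321, with thinned sums 65, 259 and 60, at Leiden resolution 0.3 43 and 215 for the first comparisons, at 1.0 46 and 174, without regression 400 and 368 for the first and last, and with clusters 1 and 2 whole 3170 and 1436 for the last comparisons. In iNKT17-like cells it was 58, 296 and 130, with DESeq2 33, 146 and 59, with thinned sums 0 (edgeR; 37 with an unadjusted p below 0.05, and 33 called by DESeq2 unthinned), 1 and 1, with ribosomal genes kept 113 for the first, at Leiden resolution 0.3 23 and 68 and at 1.0 38 and 56 for the first and last, and for the last 54 without regression and 53 with the 10 genes clustered. In the interaction it was 13, 87 and 55, with DESeq2 45 and 18 for the last comparisons, with thinned sums 5, 21 and 6, with ribosomal genes kept 22 for the first, at Leiden resolution 0.3 3 and 16 and at 1.0 5 and 25 for the first comparisons, and with clusters whole 138 and 123 for the last. Thinned sums hold fewer counts by construction.

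Leaving out each library in turn gave 1369 to 2405, 2410 to 4033 and 1026 to 1937 genes over all cells, 625 to 1614, 839 to 1853 and 352 to 685 in iNKT1-like cells, 25 to 56, 140 to 301 and 55 to 159 in iNKT17-like cells, and 9 to 16, 34 to 89 and 18 to 58 in the interaction. The lowest counts came without liver replicate 1 (1369) or spleen replicate 2 (1375) for liver against spleen over all cells, without spleen replicate 2 for liver against spleen in the other fits, and without lymph node replicate 2 for lymph node over all cells and in iNKT1-like cells. Replicate numbers did not pair the libraries, since the correlations of deviations between same-numbered libraries were 0.085, 0.083 and 0.068. A fit with the replicate block called 3033, 4138 and 2112 genes over all cells, and 1692, 1868 and 672 in iNKT1-like cells, where Itgb2 between liver and spleen became called (0.34, adjusted p = 0.0223). Liver comparisons of iNKT17-like cells and the interaction were not run without regression, since those libraries then held under 10 such cells.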
